A study of Mus musculus with 24 samples.

Results

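Cdx2, Tead4, Tfap2c, Gata3, Eomes, Yap1, Lats1, Lats2, Krt8 and Krt18 are genes of the trophectoderm and of the Hippo pathway. They are 10 of the 55291 genes counted in 12 RNA libraries of mouse preimplantation embryos. All 10 passed the filter on low counts in each comparison given here.

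The trophectoderm is the outer epithelium of the blastocyst that later forms the placenta, while the cells enclosed by it, the inner cell mass, form the embryo proper. In inner cells the Hippo kinases LATS1 and LATS2 phosphorylate the coactivator YAP1 and keep it out of the nucleus. In outer cells YAP1 enters the nucleus and acts with the transcription factor TEAD4, after which CDX2 and GATA3 are made and the keratin filaments of an epithelium appear.

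The libraries came from a study of MERVL, an endogenous retrovirus whose RNA is abundant in 2-cell mouse embryos. Zygotes came from superovulated B6D2F1 females mated with males of the same cross, both 8 weeks old, and the labels give the embryos' strain as BDF2. The male pronucleus was injected with a 20 µM solution of antisense oligonucleotides (ASOs, synthetic oligomers that base-pair with a target transcript and trigger its cleavage), and the embryos were grown in KSOM medium. Control embryos received an ASO of scrambled sequence, and knockdown embryos (MERVL-KD) received a mix of ASOs against MERVL. Each library held the total RNA of 30 pooled embryos freed of the zona pellucida, primed with random hexamers and depleted of ribosomal RNA. There were 2 libraries per condition at each of 3 stages, which had been judged by eye. The labels place the 2-cell embryos at 1.5 days post coitum (dpc) and both the 4-cell and the 8-cell embryos at 2.5 dpc. The study reports that MERVL-KD embryos were delayed, with a larger share of them than of control embryos still at the earlier stages. Embryos picked at the 4-cell stage may thus be slow ones among control but typical ones among MERVL-KD embryos. The part of this selection in the 4-cell and 8-cell differences was not tested. The study calls the 2 libraries of a group biological replicates without saying whether they came from separate collections. The p-values thus measure only the spread between these samples.

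The depth was 33532931 and 41320446 counts for control and 35524346 and 30450413 counts for MERVL-KD at the 2-cell stage. It was 34671067 and 28167085 counts for control and 33024212 and 33089736 counts for MERVL-KD at the 4-cell stage. It was 31557127 and 33309531 counts for control and 34491197 and 41482526 counts for MERVL-KD at the 8-cell stage. Levels are given as CPM, the counts scaled to a common library total after TMM normalization, so a floor of 3 counts corresponded to 0.0713 to 0.109 CPM depending on the library, for counting error only. From 71.8% to 74.7% of the counts between 1 and 50 were even, as when both mates of a read pair are counted, so fewer fragments than counts may lie behind a value. The CPM were scaled over all 12 libraries and the tests of the knockdown within the 4 libraries of a stage, so a fold change can differ from the ratio of the CPM. A gene was called when its Benjamini-Hochberg adjusted p from edgeR was under 0.05 over all tested genes and repeat types and its change was at least 2-fold.

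The target of the ASOs was examined first. MERVL-int, the internal part of the retrovirus, held 6.33% and 6.57% of control and 0.157% and 0.143% of MERVL-KD counts in 2-cell embryos. Its share among 4-cell embryos was 2.07% and 1.78% for control and 0.0544% and 0.0331% for MERVL-KD. Among 8-cell embryos it was 1.07% and 1.08% for control and 0.0278% for both MERVL-KD libraries. Each MERVL-KD library lay below each control library of its stage. The level fell 52.7-fold at the 2-cell stage (log2 fold change -5.72, SE 0.08, adjusted p = 1.28e-16), 46.2-fold at the 4-cell stage (-5.53, SE 0.25, adjusted p = 0.000104) and 42.1-fold at the 8-cell stage (-5.40, SE 0.08, adjusted p = 2.42e-12). MT2_Mm, the long terminal repeat of MERVL, changed by -2.53, -1.63 and -1.03 on the log2 scale at these stages and was called at each. The call of MT2_Mm at the 8-cell stage had a change under 2-fold with library size alone (-0.90), with genes of at least 1 count (-0.9975), without control 8-cell replicate 1 (-0.997) and without MERVL-KD 8-cell replicate 2 (-0.97).

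The members covered a wide range of levels, compared between genes as CPM per kb of exon. In control 2-cell embryos Yap1 had the highest level, 122 ± 4.19 CPM per kb (SD, n = 2 libraries). It was followed by Tfap2c, Tead4, Lats1, Krt18, Eomes, Krt8, Gata3, Lats2 and, at 0.170 ± 0.000857 CPM per kb, Cdx2. Of neighbours in this order, only the libraries of Tead4 (2.97 and 3.89 CPM per kb) and Lats1 (3.14 and 3.07 CPM per kb) overlapped. The order was different by the 4-cell stage, where Tead4 led with 58.6 ± 4.90 CPM per kb, ahead of Tfap2c (40.7 ± 0.526), Yap1 (26.9 ± 0.0342) and Lats1 (7.42 ± 0.769). Lats2, Krt8 and Krt18 came next on this scale and overlapped between neighbours, with 3.39 and 2.39 CPM per kb for Lats2, 2.14 and 2.82 for Krt8 and 2.25 and 2.37 for Krt18. Gata3, Eomes and Cdx2 were lowest and overlapped between neighbours. In control 8-cell embryos the order by CPM per kb was Tead4 (72.0 ± 8.93), Tfap2c (47.1 ± 1.23), Yap1 (25.2 ± 1.07), Lats1 (6.78 ± 0.874), Krt8 (5.38 ± 0.452), Krt18 (2.98 ± 0.647), Lats2 (2.95 ± 0.120), Gata3 (2.03 ± 0.814), Eomes (1.05 ± 0.112) and Cdx2 (0.952 ± 0.121). Of these, Krt18 and Lats2 overlapped, and so did Eomes and Cdx2. In MERVL-KD 4-cell embryos Krt8 stood above Lats1 on this scale, at 12.6 and 14.3 CPM per kb against 7.25 and 7.87.

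**Figure D1:**
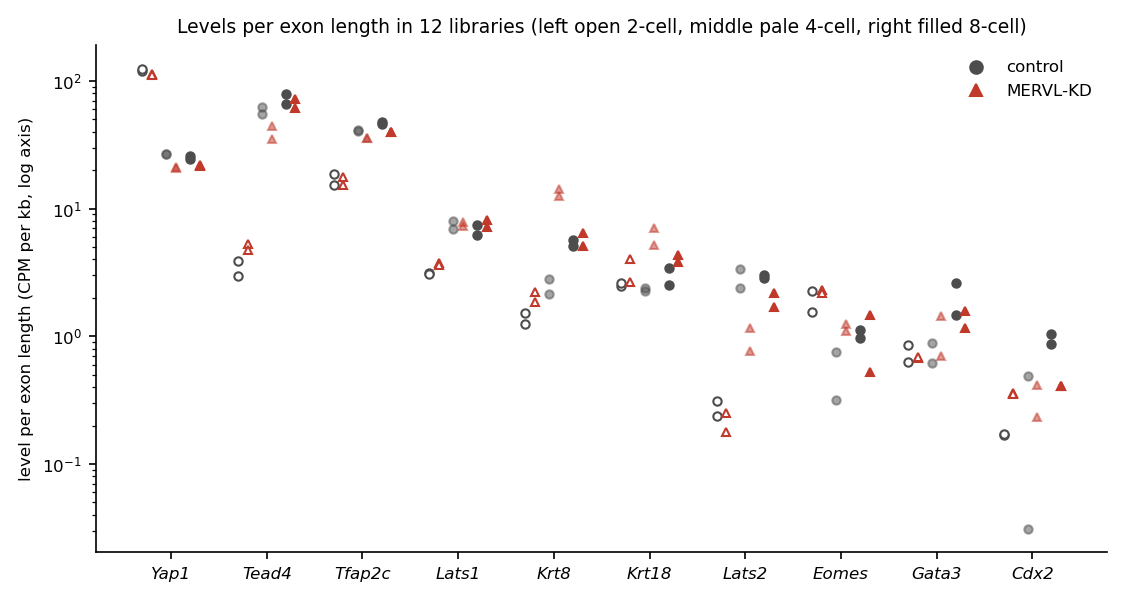
Level of each member in each library, as CPM per kb of exon on a log axis, with open points for the 2-cell, pale points for the 4-cell and filled points for the 8-cell stage. In control embryos Yap1 is highest at the 2-cell stage (122 CPM per kb) and Tead4 at the 4-cell and 8-cell stages (58.6 and 72.0 CPM per kb), and the mean of Cdx2 is lowest at each stage.

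Control and MERVL-KD embryos were compared stage by stage to see which members differed after the knockdown. At the 4-cell stage 3 of 10 members were called. The keratins Krt8 and Krt18 were 2 members called higher, against a background of 2.66% of 19738 tested genes called higher, and the kinase gene Lats2 was 1 member called lower, against 1.88%. DESeq2 also called 3 members at this stage, and 6 had an unadjusted p under 0.05. In 2-cell embryos edgeR and DESeq2 each called 0 members, with 3 at an unadjusted p under 0.05, beside 4.37% of 20604 genes in the upward and 2.24% in the downward direction. In 8-cell embryos both tools again called 0 members, with 4 at an unadjusted p under 0.05, beside 0.641% of 18414 genes upward and 1.06% downward. For comparison, 27.0%, 25.1% and 19.5% of all tested genes had such an unadjusted p in 2-cell, 4-cell and 8-cell embryos. With no fold threshold, 1 member passed in 2-cell, 5 in 4-cell and 0 in 8-cell embryos, where edgeR's adjusted p alone passed 14.1%, 10.8% and 5.06% of genes. The members' median log2 fold change was 0.33, 0.16 and -0.16 at the 2-cell, 4-cell and 8-cell stages, beside 0.01, 0.03 and 0.01 over all tested genes. The TMM scaling itself mattered most at the 2-cell stage, where library size alone moved the median of all genes from 0.01 to 0.30. The balance of higher and lower calls over all genes depended on the method. At the 2-cell stage 900 genes were called higher and 462 lower, and the higher ones made up 85.3% of calls with library size alone, 55.7% with 12 libraries in one fit and 47.6% with no fold threshold. Calls in 4-cell embryos were 525 upward and 372 downward, and the upward share was 45.7% with no fold threshold. For 8-cell embryos they were 118 upward and 195 downward, and the upward share was 56.0% with library size alone, 52.6% with genes of at least 1 count and 49.6% without control 8-cell replicate 2.

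**Figure D2:**
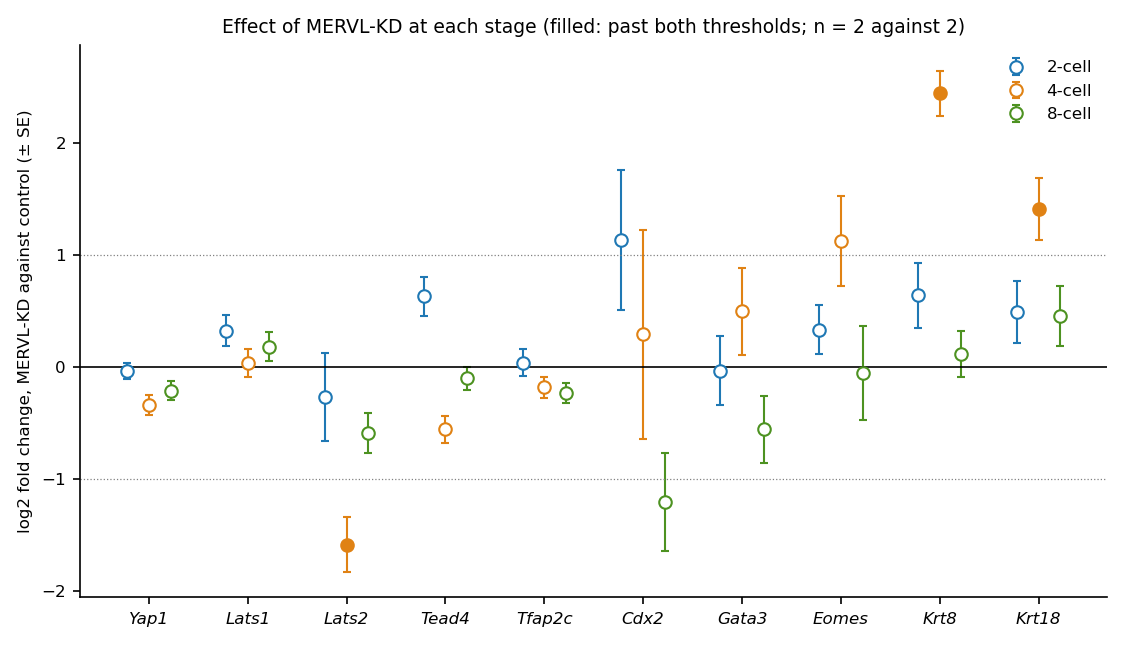
Log2 fold change of MERVL-KD against control embryos for each member at each stage, with bars for the SE (n = 2 libraries per condition) and dotted lines at a 2-fold change. Filled points, past both thresholds, are Krt8 (2.45), Krt18 (1.41) and Lats2 (-1.59) at the 4-cell stage.

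**Figure D3:**
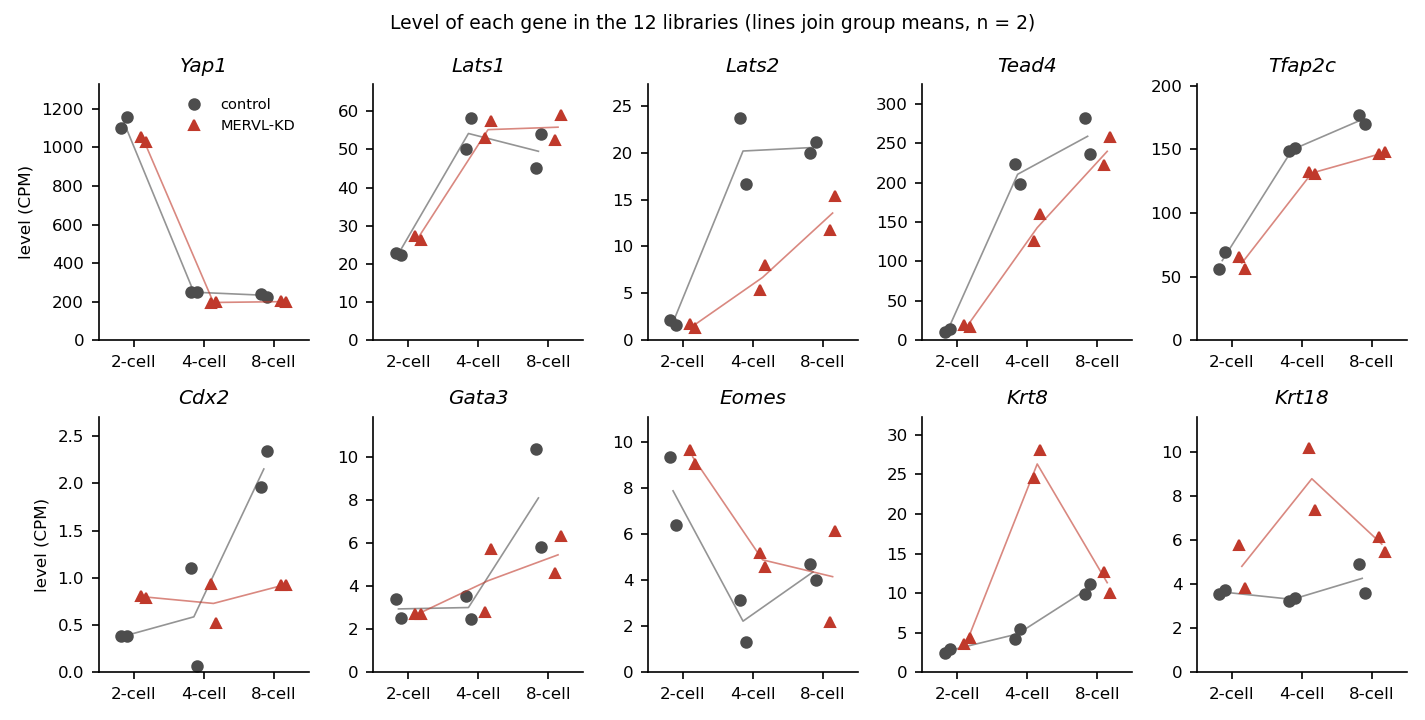
Level of each member in each library in CPM, by stage and condition, with lines joining the means of 2 libraries. Krt8 reaches 24.6 and 28.1 CPM in the MERVL-KD 4-cell libraries and 12.6 CPM or less in the other 10 libraries.

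The Hippo kinase genes are described first. Lats2, on chromosome 14 of GRCm38 from 57689662 to 57758388 on the minus strand, encodes one of the kinases that phosphorylate YAP1. Its level was 2.17 and 1.65 CPM in control and 1.74 and 1.24 CPM in MERVL-KD 2-cell embryos. In 4-cell embryos it was 23.7 and 16.7 CPM in control and 5.33 and 8.06 CPM in MERVL-KD embryos. In 8-cell embryos it was 20.0 and 21.1 CPM in control and 11.8 and 15.3 CPM in MERVL-KD embryos. The MERVL-KD libraries lay below the control libraries with no overlap at the 4-cell and the 8-cell stage, while the 2-cell groups overlapped. Lats2 fell 3.01-fold at the 4-cell stage (log2 fold change -1.59, SE 0.25, adjusted p = 0.00200). Its value of -0.59 (SE 0.18, adjusted p = 0.0859) at the 8-cell stage was not called, though its adjusted p passed when genes with at least 1 count were kept (0.0402), with a replicate block (0.0464) and without MERVL-KD 8-cell replicate 2 (-0.80, adjusted p = 0.00745), and reached 0.297 without MERVL-KD 8-cell replicate 1 (-0.42). Nor was -0.27 (SE 0.39, adjusted p = 0.731) called at the 2-cell stage. That 2-cell value became 0.02 with library size alone and ranged from -0.55 to -0.06 with a library left out. Pooled embryos cannot show whether a lower level came from fewer cells with the RNA or from less RNA per cell. The annotation places 2955 of the 6971 exon bases of Lats2 within Gm49361 on the same strand, and Gm49361 held 0 counts in the 12 libraries. How reads in both genes were counted is not stated, though with 0 counts for Gm49361 none were credited to both. The level of Lats2 per kb is thus less certain than the others, and too low if such reads were dropped.

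The RefSeq promoter table of build GRCm38.p6 held 8 of the 10 members, with 9 entries, each running from 250 bases before to 50 bases after a start. Tead4 and Tfap2c had no entry. The entries were searched on both strands for GGAATG, a TEAD motif present in 14.7% of 32851 promoters of that length, for GCCNNNGGC, an AP-2 motif present in 16.6%, and for the motif of GATA factors, AGATAA, present in 11.2%. Lats2 had 2 entries, at chr14:57734369-57734668 and chr14:57746074-57746373 on the minus strand, printed 5′ to 3′ because Lats2 was the member called lower. Capitals mark motif matches. The first entry held 0 matches, and the second held 1 AP-2 match and 1 TEAD match.
Lats2 entry 1: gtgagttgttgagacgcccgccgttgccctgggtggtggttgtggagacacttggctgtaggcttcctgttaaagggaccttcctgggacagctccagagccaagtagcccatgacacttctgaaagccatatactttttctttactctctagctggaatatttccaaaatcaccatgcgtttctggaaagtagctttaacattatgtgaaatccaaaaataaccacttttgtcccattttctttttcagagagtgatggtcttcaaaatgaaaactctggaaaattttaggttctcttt
Lats2 entry 2: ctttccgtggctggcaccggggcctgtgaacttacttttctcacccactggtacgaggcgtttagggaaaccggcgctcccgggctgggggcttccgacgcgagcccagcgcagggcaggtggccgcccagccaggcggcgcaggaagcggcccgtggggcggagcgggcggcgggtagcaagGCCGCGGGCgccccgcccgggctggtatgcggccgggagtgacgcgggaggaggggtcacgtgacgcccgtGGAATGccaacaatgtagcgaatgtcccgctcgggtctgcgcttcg

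Lats1, on chromosome 10 from 7681214 to 7716460, encodes the related kinase. It had 22.9 and 22.4 CPM in control and 27.2 and 26.3 CPM in MERVL-KD 2-cell embryos, 50.2 and 58.1 against 52.9 and 57.4 CPM at the 4-cell stage, and 45.0 and 54.0 against 52.5 and 59.1 CPM at the 8-cell stage. The conditions overlapped at the later stages, and the 2-cell difference (log2 fold change 0.33, SE 0.14, adjusted p = 0.132) did not pass the test, but did with library size alone (0.61, adjusted p = 0.00447). Yap1, on chromosome 9 from 7931999 to 8004596, encodes the coactivator that these kinases phosphorylate. It had 249 CPM in both control 4-cell libraries and 193 and 198 CPM in the MERVL-KD ones. The groups did not overlap, and the level was 1.27-fold lower in MERVL-KD (log2 fold change -0.34, SE 0.09, adjusted p = 0.0289), which is under the 2-fold threshold. The adjusted p of Yap1 was above 0.05 without control 4-cell replicate 1 (0.182), without control 4-cell replicate 2 (0.181) and with library size alone (0.0754). At the 2-cell stage Yap1 had 1103 and 1157 CPM in control and 1053 and 1028 CPM in MERVL-KD embryos. That difference was -0.04 on the log2 scale (adjusted p = 0.814) in the 4 libraries of the stage, -0.12 (adjusted p = 0.485) with 12 libraries in one fit, which alters the scaling, the filter and the dispersion together, and 0.25 (adjusted p = 0.0180) with library size alone. At the 8-cell stage Yap1 had 240 and 226 against 202 and 198 CPM and did not pass the test (-0.21, SE 0.08, adjusted p = 0.191).

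Tead4 and Tfap2c encode transcription factors that act upstream of Cdx2 in the trophectoderm, Tead4 as the DNA-binding partner of YAP1. Tead4, on chromosome 6 from 128224288 to 128300823, had 10.7 and 14.0 CPM in control and 19.0 and 17.1 CPM in MERVL-KD 2-cell embryos. Among 4-cell libraries it had 223 and 198 CPM in control and 126 and 160 CPM in MERVL-KD embryos. Among 8-cell libraries it had 282 and 236 CPM in control and 222 and 258 CPM in MERVL-KD embryos. MERVL-KD libraries were the higher ones at the 2-cell stage and the lower ones at the 4-cell stage, both without overlap, and the 8-cell groups overlapped. The log2 fold change was 0.63 (SE 0.17, adjusted p = 0.0237) at the 2-cell stage and -0.56 (SE 0.12, adjusted p = 0.0132) at the 4-cell stage, each under 2-fold. The 2-cell value of Tead4 did not pass the adjusted p threshold without control 2-cell replicate 1 (0.45, adjusted p = 0.222) or MERVL-KD 2-cell replicate 1 (0.54, adjusted p = 0.0804). The 4-cell value ranged from -0.74 to -0.40 with a library left out and passed each time. At the 8-cell stage the value was -0.10 (adjusted p = 0.674), and 0.02 with library size alone. Tfap2c, on chromosome 2 from 172549593 to 172558622, had 148 and 151 CPM in control and 132 and 130 CPM in MERVL-KD 4-cell embryos, and 177 and 170 against 146 and 148 CPM at the 8-cell stage. MERVL-KD libraries lay below control without overlap at both stages, but the values of -0.18 (adjusted p = 0.249) and -0.23 (adjusted p = 0.163) did not pass the test.

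Cdx2, Gata3 and Eomes encode transcription factors of the trophectoderm and its stem cells. Cdx2, on chromosome 5 from 147300805 to 147307270, had few counts, with 12 and 14 in control and 34 and 28 counts in MERVL-KD 2-cell embryos. In 4-cell embryos it had 39 and 2 counts in control and 34 and 18 counts in MERVL-KD embryos. In 8-cell embryos it had 54 and 70 counts in control and 32 and 36 counts in MERVL-KD embryos, or 1.96 and 2.35 against 0.923 and 0.923 CPM. MERVL-KD libraries were higher at the 2-cell stage and lower at the 8-cell stage without overlap, and the control 4-cell libraries spanned the MERVL-KD ones. None of the differences of Cdx2 passed edgeR's test, with 1.14 (SE 0.63, adjusted p = 0.268), 0.29 (SE 0.93, adjusted p = 0.902) and -1.21 (SE 0.44, adjusted p = 0.147) on the log2 scale in order of stage. Without control 4-cell replicate 2, which held the 2 counts, the 4-cell value was -0.60.

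Gata3, on chromosome 2 from 9857078 to 9890034, had 3.38 and 2.50 CPM in control and 2.71 CPM in both MERVL-KD 2-cell libraries. It had 3.55 and 2.47 against 2.80 and 5.70 CPM at the 4-cell stage and 10.4 and 5.80 against 4.59 and 6.31 CPM at the 8-cell stage. The conditions overlapped at each stage and no difference passed the test, with adjusted p = 0.964, 0.481 and 0.343. Eomes, on chromosome 9 from 118478212 to 118486132, had 9.34 and 6.39 CPM in control and 9.65 and 9.02 CPM in MERVL-KD 2-cell embryos. Its 4-cell levels were 3.12 and 1.32 CPM in control and 5.16 and 4.59 CPM in MERVL-KD embryos. Its 8-cell levels were 4.68 and 4.02 CPM in control and 2.16 and 6.13 CPM in MERVL-KD embryos. Only the 4-cell libraries of Eomes were apart, with MERVL-KD higher, and the difference of 1.13 (SE 0.40, adjusted p = 0.10) was not called. It was called without control 4-cell replicate 1 (1.89, adjusted p = 0.00303) and when genes with at least 1 count were kept (1.12, adjusted p = 0.0314), while the value was 0.64 (adjusted p = 0.446) without control 4-cell replicate 2.

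Krt8 and Krt18 encode the keratins of simple epithelia, which pair to form intermediate filaments. Krt8, on chromosome 15 from 101996698 to 102004482 on the minus strand, had 2.46 and 2.97 CPM in control and 3.61 and 4.38 CPM in MERVL-KD 2-cell embryos. Its 4-cell levels were 4.20 and 5.52 CPM in control and 24.6 and 28.1 CPM in MERVL-KD embryos. Its 8-cell levels were 9.90 and 11.2 CPM in control and 12.6 and 10.0 CPM in MERVL-KD embryos. The MERVL-KD 4-cell libraries held the highest 2 levels of the 12, and the 8-cell groups overlapped. Krt8 rose 5.45-fold at the 4-cell stage (log2 fold change 2.45, SE 0.20, adjusted p = 2.01e-05). Neither 0.64 (SE 0.29, adjusted p = 0.167) at the 2-cell stage nor 0.11 (SE 0.20, adjusted p = 0.834) at the 8-cell stage was called, though the 2-cell value of Krt8 passed the adjusted p threshold with library size alone (0.93, adjusted p = 0.0281).

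Krt18, on chromosome 15 from 102028180 to 102032027 on the plus strand, had 3.57 and 3.74 CPM in control and 5.80 and 3.85 CPM in MERVL-KD 2-cell embryos. It had 3.23 and 3.40 CPM in control and 10.2 and 7.39 CPM in MERVL-KD 4-cell embryos. It had 4.93 and 3.62 CPM in control and 6.18 and 5.49 CPM in MERVL-KD 8-cell embryos. MERVL-KD libraries were the higher ones at each stage without overlap, but only the 4-cell difference was called. Krt18 rose 2.66-fold there (log2 fold change 1.41, SE 0.28, adjusted p = 0.00725). The 2-cell and 8-cell values were 0.49 (SE 0.28, adjusted p = 0.284) and 0.46 (SE 0.27, adjusted p = 0.396). With a library left out they ranged from 0.14 to 0.74 and from 0.25 to 0.70. With each 4-cell library left out in turn, Krt8 ranged from 2.26 to 2.64 and Krt18 from 1.15 to 1.63, and both were called each time. The pseudogene Krt8-ps, looked at after the values of Krt8 were seen, held 8 counts in both control and 13 and 18 counts in the MERVL-KD 4-cell libraries.

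The start sites of Krt8 and Krt18 lie 23.7 kb apart and point away from each other. Their promoters are printed 5′ to 3′ because these neighbours rose together, at chr15:102004293-102004592 on the minus strand for Krt8 and at chr15:102027966-102028265 on the plus strand for Krt18. Capitals mark the matches to the motifs above, 1 GATA match in Krt8 and 1 AP-2 match in Krt18.
Krt8: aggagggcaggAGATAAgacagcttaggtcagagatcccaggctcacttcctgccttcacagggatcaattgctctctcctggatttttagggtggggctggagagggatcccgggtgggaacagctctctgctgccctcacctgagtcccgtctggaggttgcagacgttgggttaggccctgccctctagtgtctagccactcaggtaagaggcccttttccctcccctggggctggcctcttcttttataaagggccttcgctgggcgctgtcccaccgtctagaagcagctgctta
Krt18: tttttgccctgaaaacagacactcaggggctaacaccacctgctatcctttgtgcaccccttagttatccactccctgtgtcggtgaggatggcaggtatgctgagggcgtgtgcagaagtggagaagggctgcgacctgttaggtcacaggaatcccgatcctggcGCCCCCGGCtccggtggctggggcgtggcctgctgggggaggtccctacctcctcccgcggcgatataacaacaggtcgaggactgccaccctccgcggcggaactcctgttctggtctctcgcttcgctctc

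Of the promoters not printed, that of Yap1 held 1 TEAD and 1 AP-2 match, that of Cdx2 held 1 AP-2 match, that of Gata3 held 3 AP-2 matches, and those of Eomes and Lats1 held 0 matches. In the gene bodies of the 10 members, the closest 20-base site to any of the 3 MERVL ASOs had 4 mismatches, in Gata3. Sites in Krt8 had at least 7 mismatches, and sites in Krt18 and Lats2 at least 6. The scrambled ASO had at least 6 mismatches in each member.

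The knockdown effects at different stages were then compared by an interaction test in one fit of all 12 libraries, called at an adjusted p under 0.05 with no fold threshold. This test equally compares the stage change in MERVL-KD with that in control embryos. From the 2-cell to the 4-cell stage the effect differed for 2 of 10 members, beside 4.16% of 24040 tested genes. The effect on Krt8 was larger at the 4-cell stage by 1.89 on the log2 scale (SE 0.33, adjusted p = 0.00195), and the effect on Tead4 shifted by -1.11 (SE 0.20, adjusted p = 0.00351), from higher to lower. Lats2 gave -1.25 (SE 0.39, adjusted p = 0.0753) and did not pass. It passed without control 4-cell replicate 2 (adjusted p = 0.0473) or MERVL-KD 4-cell replicate 2 (adjusted p = 0.0194), with DESeq2 (adjusted p = 0.0363), library size alone (adjusted p = 0.0175), at least 1 count (adjusted p = 0.0205) and at least 10 counts (adjusted p = 0.0436), and over all alternatives its adjusted p reached up to 0.329. Yap1 passed with library size alone (-0.53, adjusted p = 0.00772). Between the 4-cell and the 8-cell stage the effect differed for 1 member, beside 0.624% of genes. Krt8 gave -2.33 (SE 0.32, adjusted p = 0.00184), the gene with rank 3 by p among all genes and repeat types in this test. Between the 2-cell and the 8-cell stage edgeR found 0 members and DESeq2 found 1, beside 4.03% of genes found by edgeR, and 2 members had an unadjusted p under 0.05, beside 16.7% of genes. Tead4 came closest there (-0.66, SE 0.20, adjusted p = 0.0803) and passed with DESeq2 (adjusted p = 0.0283), library size alone (adjusted p = 0.00438), at least 1 count (adjusted p = 0.0112) and at least 10 counts (adjusted p = 0.0283), and without control 2-cell replicate 2 (adjusted p = 0.0221), control 8-cell replicate 2 (adjusted p = 0.0360) or MERVL-KD 8-cell replicate 2 (adjusted p = 0.0198). The effect on Krt18 was not shown to differ between stages (1.01, SE 0.42, adjusted p = 0.205 from the 2-cell to the 4-cell stage).

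Changes with stage were tested within each condition, in comparisons that share the 4-cell libraries of that condition. Like the other fold changes here, they compare shares of a library after TMM scaling and do not measure RNA per embryo. From the 2-cell to the 4-cell stage of control embryos 6 of 10 members were called, 4 higher beside 20.7% of 24040 genes and 2 lower beside 24.3%. Tead4 rose 17.1-fold (log2 fold change 4.09, SE 0.16, adjusted p = 5.33e-14) and Lats2 rose 10.6-fold (3.40, SE 0.28, adjusted p = 9.25e-10). Tfap2c rose by 1.26 (SE 0.11, adjusted p = 3.33e-09) and Lats1 by 1.26 (SE 0.13, adjusted p = 5.66e-08). Yap1 fell 4.54-fold (-2.18, SE 0.09, adjusted p = 1.24e-14), and Eomes fell 3.50-fold (-1.81, SE 0.43, adjusted p = 0.00153, -2.57 without control 4-cell replicate 1 and -1.34 without control 4-cell replicate 2). Krt8 gave 0.83 (adjusted p = 0.00581), under 2-fold, and was called without control 4-cell replicate 1 (1.02) and with library size alone (1.01), while its adjusted p was above 0.05 without control 2-cell replicate 1 (0.0757) or control 4-cell replicate 2 (0.0945).

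In MERVL-KD embryos 6 members were called from the 2-cell to the 4-cell stage, 5 higher beside 21.2% of genes and 1 lower beside 23%. Tead4 rose 7.92-fold (log2 fold change 2.99, SE 0.15, adjusted p = 1.99e-12), Krt8 rose 6.59-fold (2.72, SE 0.23, adjusted p = 1.98e-09) and Lats2 rose 4.46-fold (2.16, SE 0.28, adjusted p = 9.54e-07). Tfap2c rose by 1.12 (adjusted p = 2.08e-08) and Lats1 by 1.04 (adjusted p = 7.82e-07), and Yap1 fell 5.32-fold (-2.41, SE 0.09, adjusted p = 2.99e-15). The call of Lats1 was lost, by a change under 2-fold, without MERVL-KD 4-cell replicate 2 (0.94), with library size alone (0.91), with a floor of 10 counts (0.89) and, narrowly, with DESeq2 (0.9996) and its size factors in edgeR (0.9988), so DESeq2 called 5 members. The call of Tfap2c was lost in the same way with library size alone (0.98) and with a floor of 10 counts (0.97). Eomes, at -0.94 (adjusted p = 0.0601), was called lower with library size alone (-1.07) and with at least 10 counts (-1.09), while its adjusted p was up to 0.225 with a library left out. Krt18 gave 0.87 (adjusted p = 0.0153), under 2-fold, and was called without MERVL-KD 2-cell replicate 1 (1.22) or MERVL-KD 4-cell replicate 2 (1.03), while its adjusted p was above 0.05 without MERVL-KD 2-cell replicate 2 (0.174) or MERVL-KD 4-cell replicate 1 (0.180). Gata3 gave 0.65 (adjusted p = 0.151) and was called without MERVL-KD 4-cell replicate 1 (1.06, adjusted p = 0.0279), while its change was 0.00 without MERVL-KD 4-cell replicate 2.

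From the 4-cell to the 8-cell stage of control embryos 2 members were called higher and 0 lower by edgeR, beside 0.474% and 1.09% of genes, and DESeq2 also called 2, with 5 at an unadjusted p under 0.05 beside 19.3% of genes. Gata3 rose by 1.42 on the log2 scale (SE 0.37, adjusted p = 0.0263), a call lost without control 4-cell replicate 1 (1.71, adjusted p = 0.0512), control 4-cell replicate 2 (1.19, adjusted p = 0.183) or control 8-cell replicate 1 (0.96, adjusted p = 0.284). Krt8 rose by 1.12 (SE 0.23, adjusted p = 0.00560), a call lost without control 4-cell replicate 1 (0.93, adjusted p = 0.0899) and with library size alone (0.91, under 2-fold). Cdx2 gave 1.84 (SE 0.74, adjusted p = 0.161) and was called without control 4-cell replicate 1 (4.88, adjusted p = 0.0142), which leaves only the library of 2 counts at that stage, and gave 0.96 (adjusted p = 0.602) without control 4-cell replicate 2. In MERVL-KD embryos 1 member was called higher and 1 lower over the same step, beside 0.333% and 1.31% of genes. Krt8 fell 2.32-fold (-1.22, SE 0.22, adjusted p = 0.00306), a call lost without MERVL-KD 8-cell replicate 2 (-1.03, adjusted p = 0.0591). Lats2 rose by 1.02 (SE 0.25, adjusted p = 0.0225), a call lost without MERVL-KD 4-cell replicate 1 (0.75, adjusted p = 0.186) or MERVL-KD 8-cell replicate 2 (0.85, adjusted p = 0.166), with only the 4 libraries compared (1.01, adjusted p = 0.0710) and with library size alone (0.88, under 2-fold). Tead4 passed the adjusted p threshold upward with a change under 2-fold (0.75, SE 0.14, adjusted p = 0.00420). Library size alone moved the median of all genes from -0.01 to -0.21 in control and from -0.04 to -0.17 in MERVL-KD embryos over this step, and Yap1 in control embryos passed the adjusted p threshold with it (-0.30, adjusted p = 0.0260, against -0.10 and 0.592). Calls over all genes, 114 higher and 261 lower in control and 80 higher and 314 lower in MERVL-KD embryos, depended on the method as well. The higher share was 8.2% in control and 7.4% in MERVL-KD embryos with library size alone, and 54.3% and 48.4% with no fold threshold.

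**Figure D4:**
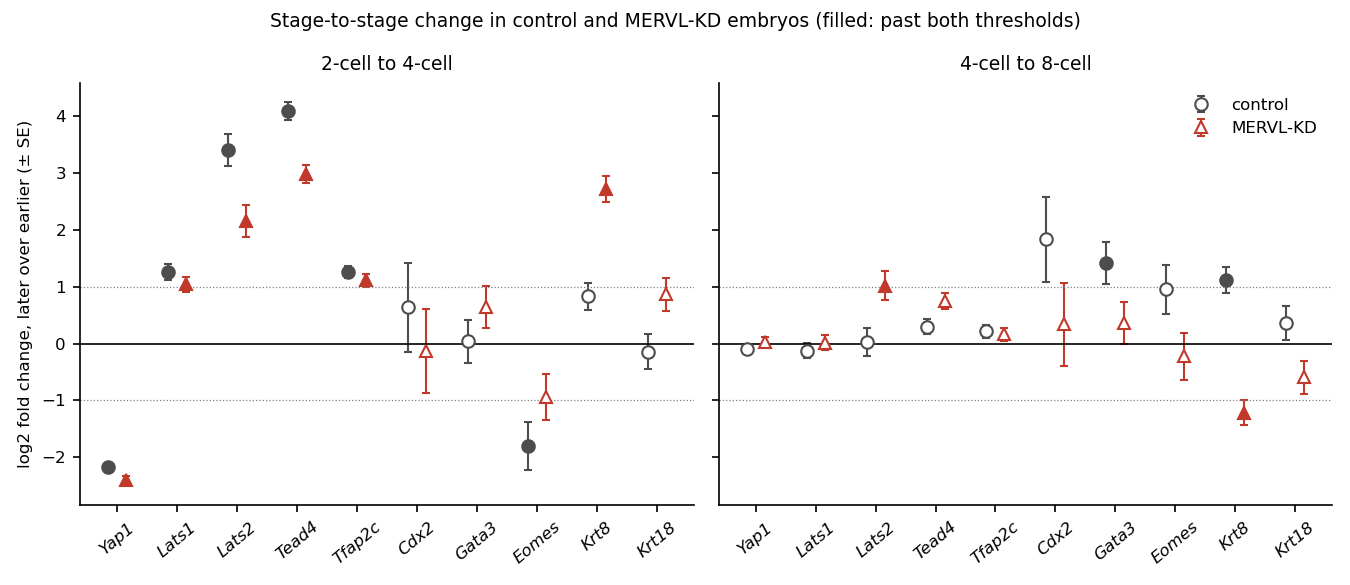
Log2 fold change of each member from the 2-cell to the 4-cell stage and from the 4-cell to the 8-cell stage, in control and MERVL-KD embryos, with bars for the SE (n = 2 libraries per group) and filled points past both thresholds. Krt8 lies at 0.83 and then 1.12 in control embryos and at 2.72 and then -1.22 in MERVL-KD embryos.

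Other genes of the pathway and its surroundings were described from lists, by their called genes and medians. The counts of calls below, and those among the marker genes, stand beside shares of all tested genes that were 4.37% upward and 2.24% downward for 2-cell, 2.66% and 1.88% for 4-cell, and 0.641% and 1.06% for 8-cell embryos. The lists are too short to compare these shares closely. Of 19 genes acting upstream of or beside the LATS kinases, 1 was called higher in 2-cell, 2 in 4-cell and 1 in 8-cell MERVL-KD embryos, and 0 were called lower. With no fold threshold the list moved both ways. It had 2 genes higher and 3 lower in 2-cell, 4 and 2 in 4-cell, and 2 and 1 in 8-cell embryos. Of all genes, 14.1%, 10.8% and 5.06% passed in either direction at these stages. Amot, whose angiomotin protein binds YAP1, had 12.5 and 12.7 CPM in control and 25.2 and 26.4 CPM in MERVL-KD 2-cell embryos, and 25.8 and 22.0 against 61.0 and 40.3 CPM at the 4-cell stage. Both MERVL-KD libraries were above both controls, and Amot rose at the 2-cell stage (1.12, SE 0.15, adjusted p = 0.000102) and at the 4-cell stage (1.09, SE 0.19, adjusted p = 0.00439). The 4-cell change was under 2-fold without control 4-cell replicate 2 (0.97) or MERVL-KD 4-cell replicate 1 (0.75). At the 8-cell stage Amot had 52.8 and 61.7 CPM in control and 36.6 and 57.6 CPM in MERVL-KD embryos, and its effect there differed from that at the 4-cell stage (-1.37, adjusted p = 0.0367). Amotl1, a related gene, rose at the 4-cell stage from 7.12 and 6.88 to 13.0 and 21.2 CPM (1.29, adjusted p = 0.00617, and 0.90 without MERVL-KD 4-cell replicate 2). It rose at the 8-cell stage from 5.44 and 7.34 to 17.1 and 15.0 CPM (1.33, adjusted p = 0.00409). The list's median was -0.03, 0.01 and 0.14 at the 2-cell, 4-cell and 8-cell stages.

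Among 5 genes for nuclear partners of the pathway, Vgll4 was the 1 called in 4-cell and in 8-cell embryos, lower in both. VGLL4 binds TEAD proteins in competition with YAP1. Vgll4 had 4.15 and 4.02 CPM in control and 2.47 and 1.30 CPM in MERVL-KD 2-cell embryos. It had 12.1 and 8.72 against 1.98 and 1.61 CPM at the 4-cell stage and 20.1 and 20.1 against 3.69 and 3.51 CPM at the 8-cell stage. MERVL-KD libraries lay below control at each stage without overlap, and Vgll4 fell 5.77-fold at the 4-cell stage (-2.53, SE 0.30, adjusted p = 0.000266) and 5.55-fold at the 8-cell stage (-2.47, SE 0.20, adjusted p = 1.63e-05). The 2-cell value of -1.02 did not pass (adjusted p = 0.0597). The medians of this list were -0.12, -0.17 and 0.04.

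Of 19 genes known as targets of YAP in other cells, 14, 15 and 12 were tested in order of stage, and 1 gene rose and 1 fell in 2-cell embryos, 1 rose and 1 fell in 4-cell embryos, and edgeR called 0 in 8-cell embryos. Tgfb2, a growth factor gene, had 267 and 219 CPM in control and 73.2 and 88.5 CPM in MERVL-KD 2-cell embryos and fell (-1.51, SE 0.12, adjusted p = 5.68e-07). Nt5e, which encodes an ecto-nucleotidase, had 4 and 6 counts in control and 49 and 73 counts in MERVL-KD 2-cell embryos and rose (3.50, SE 0.62, adjusted p = 0.00119). It passed the filter on low counts only through the MERVL-KD libraries, so it could only be called higher. Ccn2, an often used target of YAP, had 7.04 and 5.66 CPM in control and 3.30 and 1.58 CPM in MERVL-KD 4-cell embryos. It was called lower (-1.37, SE 0.37, adjusted p = 0.0347), a call lost without control 4-cell replicate 1 (adjusted p = 0.0559), without MERVL-KD 4-cell replicate 2 (adjusted p = 0.114) and with library size alone (adjusted p = 0.0558), and -2.01 without MERVL-KD 4-cell replicate 1. Arhgef17 was called higher at that stage (2.08, SE 0.50, adjusted p = 0.0212), with 0.993 and 0.556 against 2.17 and 4.44 CPM, a call lost without MERVL-KD 4-cell replicate 2 (adjusted p = 0.161). The medians were 0.31, -0.09 and 0.12.

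Of 8 other regulators of the trophectoderm, 3 of 7 tested were called higher in 2-cell MERVL-KD embryos (beside 4.37% of all genes) and 1 of 6 in 4-cell ones (beside 2.66%), and 0 of 7 were called by edgeR in 8-cell embryos. Id2, an inhibitor of basic helix-loop-helix factors, had 4.53 and 2.42 CPM in control and 11.5 and 12.1 CPM in MERVL-KD 2-cell embryos, and 0.965 and 1.60 against 4.17 and 5.61 CPM at the 4-cell stage. It rose at both stages without overlap (1.85, SE 0.27, adjusted p = 0.000238 and 1.94, SE 0.38, adjusted p = 0.00763). Gata2, a factor related to Gata3, rose at the 2-cell stage from 5.10 and 7.38 to 12.5 and 19.5 CPM (1.44, SE 0.23, adjusted p = 0.000687). Hand1, a factor of trophoblast giant cells, had 1.15 and 0.771 CPM in control and 2.19 and 6.11 CPM in MERVL-KD 2-cell embryos (2.19, SE 0.46, adjusted p = 0.00493), a call lost without MERVL-KD 2-cell replicate 2 (1.27, adjusted p = 0.0953) and with 12 libraries in one fit (adjusted p = 0.0740). The medians were 0.52, 0.87 and -0.15.

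Of 17 other genes of the trophectoderm epithelium, 1 of 15 tested was called higher at the 2-cell, 3 of 16 at the 4-cell and 1 of 16 at the 8-cell stage, and 0 were called lower. Atp1b1, a subunit of the sodium pump that fills the blastocyst cavity, had 22.4 and 16.3 CPM in control and 24.8 and 22.0 CPM in MERVL-KD 2-cell embryos. It had 5.36 and 4.52 against 18.9 and 16.8 CPM at the 4-cell stage and 6.06 and 7.44 against 13.6 and 15.3 CPM at the 8-cell stage. The groups of Atp1b1 did not overlap at the later stages, and it rose at the 4-cell stage (1.86, SE 0.21, adjusted p = 0.000199) and at the 8-cell stage (1.11, SE 0.20, adjusted p = 0.0102, and 0.97 without control 8-cell replicate 1). Its effect was larger at the 4-cell than at the 2-cell stage (1.58, SE 0.28, adjusted p = 0.00244). Krt19, a further keratin, had 1 and 2 counts in control and 26 and 50 counts in MERVL-KD 4-cell embryos. It was called higher (adjusted p = 0.0118), a call lost without MERVL-KD 4-cell replicate 2 (3.81) and with 12 libraries in one fit (adjusted p = 0.0928). Krt19 too passed the filter on low counts only through the MERVL-KD libraries, so it could only be called higher. Dsg2, a desmosomal cadherin, was called at the 4-cell stage (1.83, SE 0.53, adjusted p = 0.0477), a call lost without control 4-cell replicate 2 (adjusted p = 0.164), MERVL-KD replicate 1 (adjusted p = 0.0774) or MERVL-KD replicate 2 (adjusted p = 0.146), with DESeq2 (adjusted p = 0.0627), with a replicate block (adjusted p = 0.0722) and with 12 libraries in one fit (adjusted p = 0.110). Lgals3, which encodes a lectin, was called at the 2-cell stage (1.17, SE 0.28, adjusted p = 0.0114), with 2.23 and 2.09 against 4.68 and 4.50 CPM, a call lost without control 2-cell replicate 2 (adjusted p = 0.0566) and with 12 libraries in one fit (adjusted p = 0.0719). The medians were 0.21, 0.63 and 0.26. The 7 genes of the inner cell mass gave 1 call in these comparisons, Pdgfra, a receptor gene of the primitive endoderm, which rose at the 4-cell stage from 7.58 and 8.55 to 21.8 and 29.4 CPM (1.67, SE 0.20, adjusted p = 0.000300). Their medians were 0.07, 0.49 and -0.16. With no fold threshold 1 of these genes was higher in 2-cell and 2 in 4-cell embryos, with 0 lower. At the 8-cell stage 0 were higher and 3 of 6 tested were lower, beside 5.06% of all genes in either direction. The list summed to 293 and 314 CPM in control and 357 CPM in both MERVL-KD 4-cell libraries. Its 8-cell sums were 526 and 525 CPM in control and 380 and 399 CPM in MERVL-KD embryos.

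**Figure D5:**
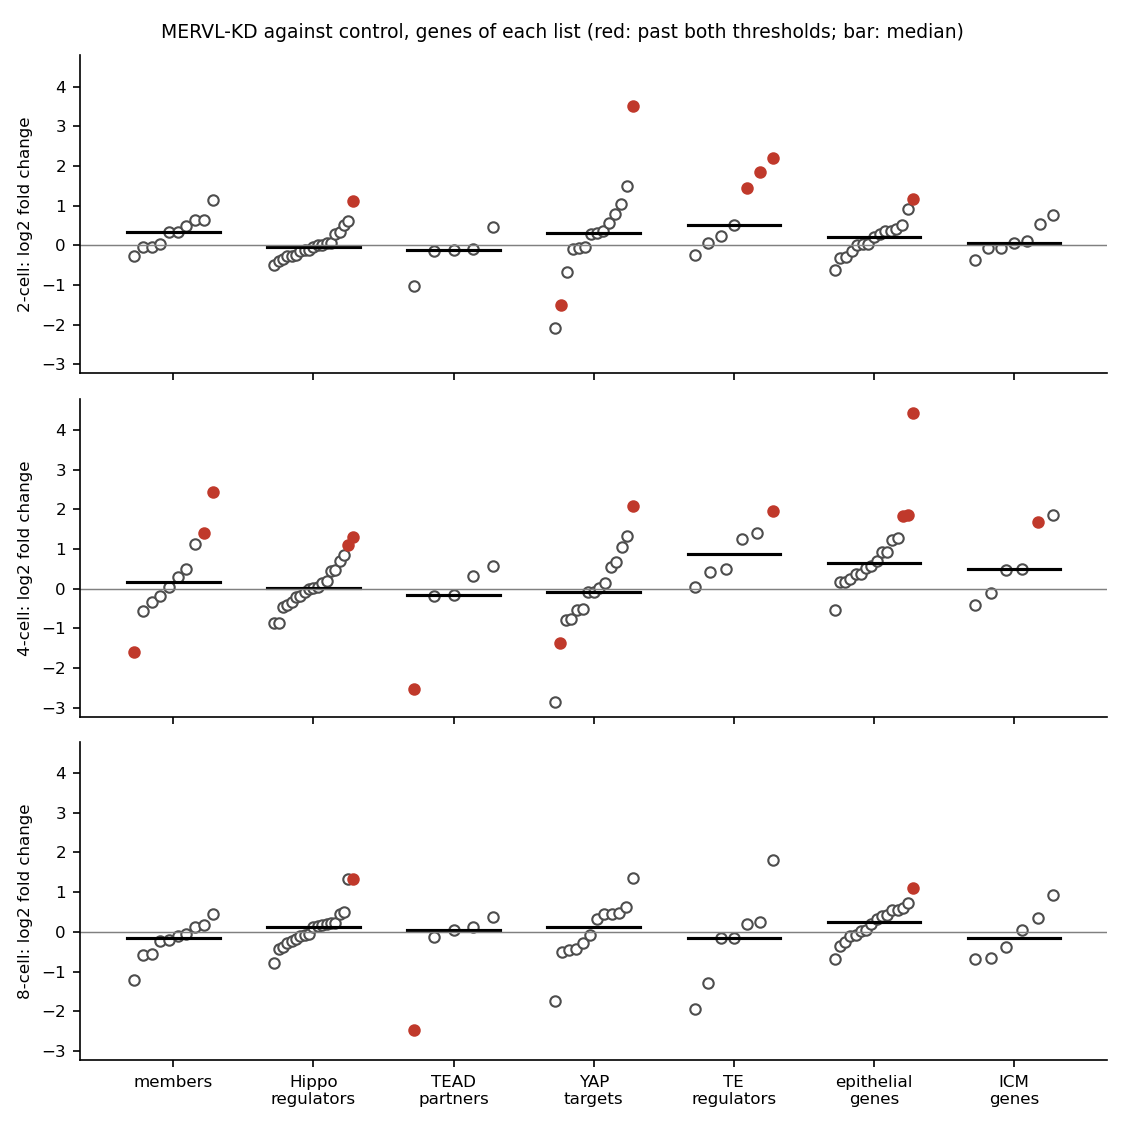
Log2 fold change of MERVL-KD against control embryos for each tested gene of the lists, at the 2-cell, 4-cell and 8-cell stages, with called genes in red and a bar at each list's median. At the 4-cell stage the medians of the other trophectoderm regulators (0.87) and of the other epithelium genes (0.63) lie above the median of all genes (0.03).

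The same lists were described between stages, for the step from the 2-cell to the 4-cell stage, over which 20.7% of all genes were called higher and 24.3% lower in control embryos, with a median of -0.06 that became 0.10 with library size alone. Of 17 epithelium genes 7 were called higher and 2 lower (median 0.93), and of 5 nuclear partners 3 were called higher and 0 lower (median 1.35). Of 8 other regulators of the trophectoderm 2 were called higher and 4 lower (median -1.26), and of 17 tested targets of YAP 4 were called higher and 5 lower (median -0.69). Of 19 upstream genes 3 were called higher and 5 lower (median 0.03), and of 7 genes of the inner cell mass 4 were called higher and 1 lower (median 1.05). The claudin gene Cldn4 rose by 5.56 (SE 0.21, adjusted p = 4.86e-15), and the YAP1 relative Wwtr1 rose by 1.39 (SE 0.18, adjusted p = 2.49e-06). The scaffold gene Wwc2 fell (-2.23, SE 0.10, adjusted p = 3.89e-14). In MERVL-KD embryos 11 of 17 epithelium genes were called higher and 1 lower over this step, where 21.2% of all genes were called higher and 23% lower. The counts were 2 higher and 4 lower both for the 8 regulators and for the 17 targets. For the 7 genes of the inner cell mass they were 4 higher and 1 lower. For the 5 nuclear partners they were 2 higher and 0 lower, and for the 19 upstream genes 4 higher and 4 lower.

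The libraries were checked for their labelled identity and for other cells. All 8 markers of early embryos were detected in each library, with Dppa3 the most abundant in each. They summed to 1514 and 1472 CPM in control and 962 and 1039 CPM in MERVL-KD 2-cell embryos, to 1413 and 1298 against 1046 and 1135 CPM in 4-cell embryos, and to 1731 and 1774 against 1321 and 1460 CPM in 8-cell embryos. The sum was thus lower in MERVL-KD libraries at each stage without overlap, and its part in the results on the members was not tested. Dppa3 alone had 1189 and 1086 CPM in control and 836 and 925 CPM in MERVL-KD 4-cell embryos. The markers' median log2 fold change was -0.39, 0.08 and -0.08 at the 2-cell, 4-cell and 8-cell stages. At the 4-cell stage 4 markers had a positive and 4 a negative value. With no fold threshold 4 of the 8 passed at the 2-cell stage, 2 in 4-cell and 2 in 8-cell embryos, all as lower, where 14.1%, 10.8% and 5.06% of all genes passed in either direction. Zscan4c was called lower at the 2-cell stage (-1.47, adjusted p = 1.93e-05), a call lost with 12 libraries in one fit (adjusted p = 0.180). Zfp352 was called lower at the 4-cell stage (-1.04, adjusted p = 0.0317), a call lost without control 4-cell replicate 2 (-0.88, adjusted p = 0.0800) or MERVL-KD 4-cell replicate 2 (-0.72, adjusted p = 0.105), with library size alone (-0.97, adjusted p = 0.0584) and with 12 libraries in one fit (adjusted p = 0.366). Of 9 cumulus and granulosa markers, summing to between 20.8 and 28.1 CPM, Amhr2 was most abundant at 13.5 to 24.7 CPM, Ptx3 was at 0 in 11 of 12 libraries, and Fshr and Inha held 8 counts or fewer in each library. Star was 1 marker called higher at the 2-cell stage (1.14, adjusted p = 0.0169), a call lost without control 2-cell replicate 1 (adjusted p = 0.0867) or MERVL-KD 2-cell replicate 1 (adjusted p = 0.0557) and with 12 libraries in one fit (adjusted p = 0.128). Of 6 sperm markers, summing to between 0.290 and 2.04 CPM, Prm2 was most abundant over all libraries together but not in each, with 0 counts in control 4-cell replicate 2. At most 1 of the 6 had enough counts to be tested in any comparison, so calls say little about them. These marker genes are named although they were chosen after their values were seen.

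The 4 markers of oviduct epithelium summed to 1.50 and 1.62 CPM in control and 7.77 and 4.55 CPM in MERVL-KD 2-cell embryos. They summed to 1.48 and 2.02 against 1.46 and 1.87 CPM at the 4-cell stage and to 1.96 and 2.11 against 1.82 and 2.41 CPM at the 8-cell stage, with Ovgp1 the most abundant in 11 of 12 libraries and Muc1 (22 counts against 21) in control 2-cell replicate 1. The sum was higher in both MERVL-KD 2-cell libraries, and the later groups overlapped. At the 2-cell stage 2 of 3 tested markers were called higher, named here after their values were seen. Ovgp1 had 21 and 43 counts in control and 212 and 107 counts in MERVL-KD embryos (2.20, adjusted p = 0.00122). Muc1 had 22 and 10 against 96 and 40 counts (1.90, adjusted p = 0.0344), a call lost without control 2-cell replicate 2 (adjusted p = 0.158) or MERVL-KD 2-cell replicate 1 (adjusted p = 0.314), with DESeq2 (adjusted p = 0.0723), with 12 libraries in one fit (adjusted p = 0.300) and with the crossed replicate block, an alternative chosen after seeing the data (adjusted p = 0.0659). The part of such RNA in the 2-cell values of Id2, Gata2, Hand1 and the members was not tested. From the 2-cell to the 4-cell stage of MERVL-KD embryos 2 of 4 oviduct markers were called lower. Of 6 tested cumulus and granulosa markers 1 was called higher and 2 lower, where 21.2% of all genes were called higher and 23% lower. In control embryos 0 of 4 oviduct, 1 of 6 cumulus and granulosa and 1 of 1 tested sperm markers were called, as lower, beside 24.3% of genes. The part of such RNA in the members' stage changes was not tested.

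For each member but Gata3, the 3 genes with the most similar pattern are given, sought among 9657 genes with a mean of at least 5 CPM, by Pearson's r of log2 CPM over the 12 libraries, as a description only. Krt8 was most like Lif (r = 0.966), followed by Map3k9 and Dnajc9. Krt18 was most like Ccng1 (r = 0.889), followed by S1pr5 and Plk2. Lats2 was most like Lars, Smn1 and Wdr3, each at r = 0.984. The kinase gene Lats1 was most like Ankib1 (r = 0.992), followed by Etnk1 and E2f6, and Yap1 was most like Wdr20 (r = 0.999), followed by Gm19299 and Siah2. Tead4 was most like Psat1 (r = 0.997), followed by Mllt6 and Timd2, and Tfap2c was most like Kcnk6 (r = 0.997), followed by Lsm12 and Rwdd1. Cdx2 was most like Tgif2 (r = 0.871), followed by Trappc3 and Dph2. Eomes was most like Nav1 (r = 0.915), followed by Cdc34 and Pnkd. The 12 libraries fall into 6 groups and are not independent conditions.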

How the data were processed

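Total RNA libraries of control and MERVL-KD embryos, 2 per condition at 3 stages, were analysed. The deposited values are raw counts, which the authors made with featureCounts from unique STAR 2.5.3a alignments to GRCm38, for GENCODE vM25 genes and RepeatMasker types. Strand and pair settings are not stated, and 71.8% to 74.7% of counts from 1 to 50 were even, so both mates of a pair may have been counted. Totals were 28167085 to 41482526 counts per library.

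Counts were analysed with edgeR 4.0.16 (filterByExpr, TMM, robust quasi-likelihood test) in R 4.3.3, with DESeq2 1.42.0 as an alternative, Python 3.11.15, pandas 2.3.3 and matplotlib 3.10.9. Knockdown and control were compared in the 4 libraries of a stage, and stage changes and interactions in 1 fit of 12 libraries. The SE is the log2 fold change over the square root of the F statistic. The steps were tested on simulated data.

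The members and lists were chosen with earlier results of these data known. Named genes were all 10 members, MERVL-int, MT2_Mm, up to 4 called genes with the smallest adjusted p per list and comparison, and the 3 most similar genes per member. Other marker genes and Krt8-ps were named after their values were seen, and Gm49361 and Gm42890 for their overlaps with Lats2 and Ovgp1. The genes most similar to Gata3 are not reported here. Alternatives were DESeq2, its size factors, library size alone, filters of at least 1 or 10 counts, no repeats, no fold threshold, counts halved, a replicate block, other sets of libraries in the fit, and each library left out.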

Additional observations from a re-analysis of the deposited data

Results flagged for a closer look

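The knockdown effect differed between stages for 3 results, by a test of the difference itself. For Krt8 the log2 fold change of MERVL-KD against control embryos was larger at the 4-cell than at the 2-cell stage by 1.89, and the 8-cell value minus the 4-cell value was -2.33. For Tead4 the 4-cell value minus the 2-cell value was -1.11, with MERVL-KD libraries higher at the 2-cell and lower at the 4-cell stage. When any one library was omitted, the first value lay between 1.68 and 2.10, the next between -2.54 and -2.15 and the last between -1.40 and -0.91, and each passed the test each time.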

How the results depend on the processing

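With a library left out, its arm holds 1 library, which is assumed to vary like the others. The calls of Krt8, Krt18 and Lats2 at the 4-cell stage were kept under each alternative run. Of 1462 member values under all alternatives, 1366 kept their direction and side of the threshold, 30 newly passed it, 17 no longer did and 49 changed sign. Pairing by replicate number was not shown. Deviations of same-numbered control and MERVL-KD libraries from their group means had r = -0.135, 0.033 and 0.034 in 2-cell, 4-cell and 8-cell embryos. A replicate block left the members called as they were. Pairing crossed numbers at the 2-cell stage, chosen after seeing the data, gave 0 members. For Cdx2 and Krt19, few counts and the spread between libraries both limit the precision, and their parts were not tested. The cause of changes was not tested unless fewer libraries or another threshold made it.

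With no fold threshold, 1 member passed in 2-cell and 5 in 4-cell embryos. Genes passing numbered 2904, 2125 and 932 for the knockdown in 2-cell, 4-cell and 8-cell embryos, and 1411 and 1125 from the 4-cell to the 8-cell stage of control and MERVL-KD embryos. With DESeq2, Gata3 changed by -0.016 from the 2-cell to the 4-cell stage of control embryos, the interaction passed for 1622 genes from the 2-cell to the 4-cell and 438 from the 4-cell to the 8-cell stage, and for 1 member between 2-cell and 8-cell. With DESeq2's size factors in edgeR, Gata3 over the same step gave -0.0148, and with at least 10 counts in every library -0.023.

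With library size alone, 2-cell knockdown values were 0.25 for Gata3, 0.25 for Yap1 and 0.017 for Lats2, and 8-cell values 0.024 for Tead4 and 0.053 for Eomes. Krt18 gave 0.029 from the 2-cell to the 4-cell stage of control embryos. From the 4-cell to the 8-cell stage 1 member and 596 genes were called in control, with Lats2 at -0.18, and 1 member in MERVL-KD, with Yap1 at -0.10 and Lats1 at -0.12. Interactions passed for 4 members and 1500 genes (4-cell minus 2-cell) and 1 member (8-cell minus 2-cell), with Krt18 at -0.19, and Tfap2c gave 0.016 (8-cell minus 4-cell). Medians of all genes became 0.13 for the 8-cell knockdown, 0.10 for the first step of control, -0.19 for the first step of MERVL-KD and -0.25 and -0.20 for the interactions with the 2-cell stage.

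With genes of at least 1 count kept, 496 genes were called at the 8-cell stage, 604 from the 4-cell to the 8-cell stage of MERVL-KD, 449 in the interaction of these stages, and 1 member between 2-cell and 8-cell. With at least 10 counts the latter also held 1 member, with Krt18 at -0.051. With 12 libraries in one fit, Tfap2c at the 2-cell stage gave -0.047. With only the 4 libraries compared, 1 member and 173 genes were called from the 4-cell to the 8-cell stage of MERVL-KD.

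With each library left out, knockdown values at the 2-cell stage ranged from -0.11 to 0.18 for Tfap2c and from -0.26 to 0.20 for Gata3. At the 4-cell stage they ranged from -0.60 to 3.33 for Cdx2, -0.10 to 0.92 for Gata3 and -0.071 to 0.13 for Lats1. At the 8-cell stage they ranged from -0.22 to 0.036 for Tead4, -0.998 to 0.50 for Eomes and -0.066 to 0.27 for Krt8, with 348 to 529 genes called.

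From the 2-cell to the 4-cell stage, Cdx2 ranged from -2.41 to 1.51 and Gata3 from -0.26 to 0.26 in control, and Cdx2 from -0.61 to 0.18 in MERVL-KD. From the 4-cell to the 8-cell stage of control, 1 to 2 members and 247 to 308 genes were called, with Lats1 from -0.27 to 0.019 and Lats2 from -0.20 to 0.30. In MERVL-KD it was 0 to 2 members and 181 to 451 genes, with Gata3 from -0.059 to 1.00, Eomes from -1.14 to 0.33 and Lats1 from -0.039 to 0.12.

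The 4-cell minus 2-cell interaction passed for 515 to 964 genes, with Cdx2 from -1.64 to 2.28, Tfap2c from -0.31 to 0.023, Gata3 from -0.10 to 1.03 and the median of all genes from -0.11 to 0.12. The 8-cell minus 4-cell interaction passed for 93 to 272 genes. The 8-cell minus 2-cell interaction passed for 0 to 1 members and 550 to 885 genes, with Eomes from -1.35 to 0.25, Lats1 from -0.29 to 0.017, Lats2 from -0.55 to 0.022, Krt18 from -0.23 to 0.39 and the median of all genes from -0.12 to 0.07. The median from the 2-cell to the 4-cell stage of MERVL-KD ranged from -0.17 to 0.05.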
